A study of Mus musculus with 6 samples.

Results

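A group of 7 genes of cholesterol synthesis and its control was followed in RNA-Seq libraries of bone marrow monocytes and brainstem microglia: Hmgcs1, Idi1, Fdft1, Sqle, Lss, Insig1 and Srebf2. They were found by symbol. In the table of 35237 genes made with Cufflinks, 6 of the 7 had a row, with an expression value in FPKM, that is, sequenced fragments scaled by the exon length of the gene and by the number of mapped reads. In the second table, made from the same libraries with ALEXA-Seq and holding 36536 entries, all 7 symbols occurred. The monocytes (BMDM) were sorted as CD11b+ CD45high CD115+ Ly6G- cells from bone marrow, and the microglia (BSM) as CD11b+ CD45low CD115low Ly6G- cells from brainstem. Both came from C57BL/6 mice at 6 weeks of age, with no treatment named in the labels, and each of the 3 BMDM and 3 BSM libraries was made from the cells of several pooled mice, with amplification of the RNA. According to the labels, replicate 1 of each cell type came from male mice and replicates 2 and 3 from female mice. The comparison asks which transcripts tell marrow monocytes from resident microglia.

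Cholesterol is built from acetyl-CoA. The mevalonate arm runs through HMG-CoA synthase (Hmgcs1) and mevalonate to isopentenyl diphosphate, which the isomerase Idi1 converts to dimethylallyl diphosphate. In the sterol arm, squalene synthase (Fdft1) joins farnesyl units to squalene, squalene epoxidase (Sqle) oxidises it and lanosterol synthase (Lss) closes the rings. The transcription factor SREBP2, encoded by Srebf2, switches these genes on when sterols in the endoplasmic reticulum are low. It is carried to the Golgi by Scap for cleavage, and Insig1 and Insig2 hold the Scap complex back when sterols are plentiful. Insig1 is itself a target of SREBP, so its transcript is a common readout of the pathway. Microglia and monocytes both make sterols and take them up as lipoproteins, and in the brain astrocytes and oligodendrocytes are the major producers.

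SREBP binds sterol regulatory elements, often beside a CCAAT box bound by NF-Y and a GC box bound by Sp1. The 250 bases before the RefSeq start were available for 5 of the members (Hmgcs1, Idi1, Lss, Insig1 and Srebf2, RefSeq, GRCm38.p6) and were searched on both strands for TCACNCCAC (sterol regulatory element), CCAAT and GGGCGG (GC box). The 3 sequences shown are those of Insig1, the most abundant member by FPKM, of Srebf2, which encodes the factor itself, and of Hmgcs1, which holds the full element. They are cut at the first base of the GENCODE M21 gene where that lies upstream of the RefSeq start, and all read 5′ to 3′ on the plus strand, at chr5:28071162-28071362 for Insig1, chr15:82147019-82147180 for Srebf2 and chr13:119690101-119690350 for Hmgcs1. Capitals mark CCAAT boxes, read as ATTGG on the other strand, and the element or its first 8 letters TCACNCCA, a shorter form added after the sequences were seen.
Insig1: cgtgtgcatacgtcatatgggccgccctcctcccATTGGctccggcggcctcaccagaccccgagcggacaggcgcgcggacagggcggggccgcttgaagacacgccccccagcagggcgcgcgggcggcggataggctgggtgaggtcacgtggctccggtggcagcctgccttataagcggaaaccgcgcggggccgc
Srebf2: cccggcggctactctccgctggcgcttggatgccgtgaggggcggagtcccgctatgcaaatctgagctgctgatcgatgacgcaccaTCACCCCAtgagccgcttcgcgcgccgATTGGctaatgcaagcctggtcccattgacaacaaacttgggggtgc
Hmgcs1: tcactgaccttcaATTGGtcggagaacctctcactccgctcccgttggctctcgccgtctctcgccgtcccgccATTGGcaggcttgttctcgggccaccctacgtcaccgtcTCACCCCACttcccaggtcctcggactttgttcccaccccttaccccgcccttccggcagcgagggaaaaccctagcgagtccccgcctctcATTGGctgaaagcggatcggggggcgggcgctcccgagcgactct

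The full element was found in 1 of the 5 windows, that of Hmgcs1, at -137 to -129 relative to the start, and in 1.05% of the 32851 promoter windows of the table. The shorter form was also present in Srebf2, at -162 to -155, and in 3.67% of all windows. Each of the 5 windows held at least 1 CCAAT box, against 33.8% of all windows, with 3 in Hmgcs1, 2 in Idi1 and 1 in each of the others. GC boxes were likewise present in all 5, with 4 in Srebf2, 3 in Insig1, 2 each in Hmgcs1 and Lss and 1 in Idi1, against 32.7% of all windows. A match describes letters only and is not a measured binding site.

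**Figure D1:**
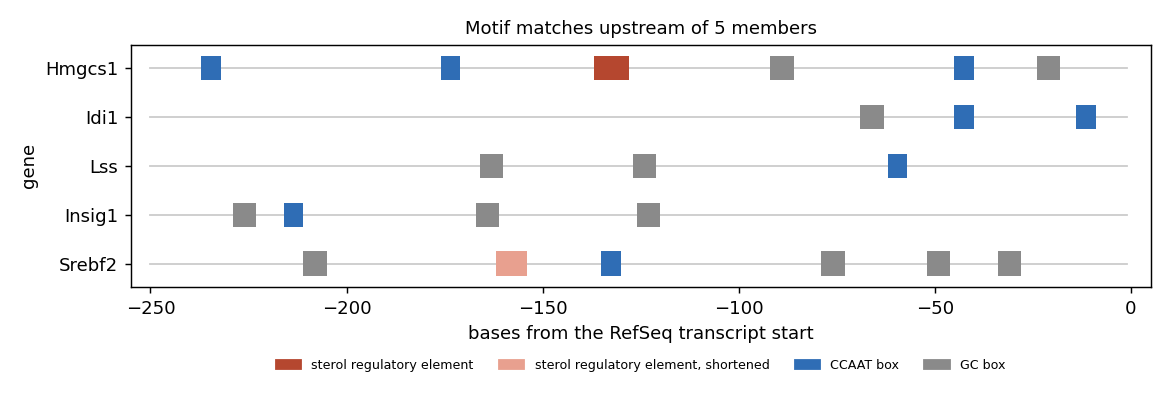
Positions of motif matches in the 250 bases before the RefSeq start of 5 members, with the distance from the start in bases on the x axis and 1 gene per line. Boxes stand for matches on either strand, and the only full sterol regulatory element lies in Hmgcs1.

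Insig1 was the most abundant of the members in both cell types by FPKM and was higher in BMDM. Its FPKM was 3.80, 3.53 and 3.90 in the BMDM libraries and 0.576, 0.973 and 0.948 in the BSM libraries. Every BMDM library stood above every BSM library, as was the case for 55.2% of the genes that reached an FPKM of 3 in any library, and the means of 3.74 ± 0.193 and 0.832 ± 0.222 (SD, n = 3 each) differed 4.50-fold. Insig1 was the only member to reach an FPKM of 3 in any library, the minimum used for the main test, and it did so only in BMDM, so it entered that test through the cell type in which it is high. There its log2 fold change, BMDM minus BSM on the log2(FPKM + 1) scale, was 1.38 ± 0.24 (SE, adjusted p = 0.00249, limma with Benjamini-Hochberg adjustment over 6364 genes). Of those genes, 45.3% were called higher in BMDM, and their median log2 fold change was 0.81. With no FPKM minimum the limma adjusted p was 0.0055. The ALEXA-Seq values gave the same order, at 72.9, 69.9 and 74.1 in BMDM and 11.8, 20.4 and 19.4 in BSM, a 4.20-fold difference of the means without overlap (51.5% of the entries tested there). On that table the limma adjusted p was 0.00281 for a log2 fold change of 2.05, and 37.1% of the genes tested were called higher in BMDM. The gene lies on chromosome 5 at 28397907 to 28405201 (mm9).

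Summed over all genes, FPKM were 2.50 times higher in BMDM than in BSM, so scaling between libraries decides how much of such a difference remains. The call for Insig1 was lost when the libraries were quantile normalized (log2 fold change 0.52, limma adjusted p = 0.107) or scaled to the same sum of FPKM (0.56, limma adjusted p = 0.11). With quantile normalization over the larger set of genes that pass an FPKM minimum of 1 it was called (0.78, limma adjusted p = 0.0178). Insig1 was also called with upper quartile scaling (0.85, limma adjusted p = 0.0278), where 1380 of 6364 genes were called higher in BMDM. On the ALEXA-Seq values it was called with quantile normalization (1.23, limma adjusted p = 0.0075), where 1439 of 6364 were. Taken as a share of each library's summed FPKM, Insig1 came to 0.00233%, 0.00182% and 0.00225% in BMDM and 0.000833%, 0.0013% and 0.00139% in BSM. The cell types still did not overlap on this scale, and the ratio of the means was 1.82. In bulk libraries of this kind, a higher level in each cell and a larger share of cells with the transcript cannot be told apart.

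Insig2 is the paralog of Insig1 and is not a classical SREBP target. Its FPKM was 2.02, 1.54 and 1.41 in BMDM and 1.302, 2.61 and 2.86 in BSM, and the cell types overlapped. By ALEXA-Seq they did not, with 23.1, 17.1 and 16.7 in BMDM below 24.7, 31.5 and 40.4 in BSM, but Insig2 was not called (log2 fold change -0.72, limma adjusted p = 0.14) unless the values were quantile normalized (-1.85, limma adjusted p = 0.00626) or BSM replicate 1 was left out (-0.89, limma adjusted p = 0.033). With an FPKM minimum of 1 its log2 fold change was -0.26 and not called (limma adjusted p = 0.45), whereas with quantile normalization added it was -0.89 and called higher in BSM (limma adjusted p = 0.0232, a call made for 16.1% of genes in that fit). The ratio of Insig1 to Insig2 within a library does not depend on scaling between libraries. By FPKM it was 1.88, 2.29 and 2.76 in BMDM and 0.443, 0.372 and 0.331 in BSM. By ALEXA-Seq it was 3.15, 4.10 and 4.43 in BMDM and 0.477, 0.646 and 0.481 in BSM. Insig1 thus exceeded Insig2 in every BMDM library and stayed below it in every BSM library in both tables. The mean log2 ratio differed by 2.59 by FPKM and by 2.86 by ALEXA-Seq (exact permutation test, two-sided p = 0.1 for each, the smallest that 3 against 3 libraries allow). This ratio was chosen after the values had been seen.

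**Figure D2:**
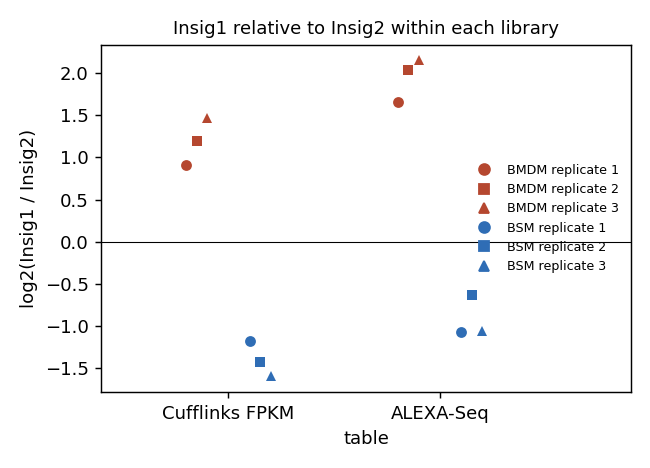
The log2 ratio of Insig1 to Insig2 within each library (y axis) in the Cufflinks and ALEXA-Seq tables (x axis), with 1 point per library. The BMDM libraries lie above 0 and the BSM libraries below 0 in both tables.

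Srebf2, the gene of the pathway's main transcription factor, was higher in BMDM. Its FPKM was 1.42, 1.34 and 1.28 in BMDM and 0.00616, 0.234 and 0.217 in BSM. BSM replicate 1 stood far below the other two, and no BSM library reached the lowest BMDM library. The ratio of the means was 8.86, or 5.99 without BSM replicate 1. Srebf2 entered the test only with an FPKM minimum of 1, and only through its BMDM libraries. Its log2 fold change there was 1.03 ± 0.21 (SE, limma adjusted p = 0.00521), and 37.2% of the 9637 genes tested at this minimum were called higher in BMDM. It was 0.55 (limma adjusted p = 0.0413) with quantile normalization added, where 17.9% of genes were called higher in BMDM, and 0.60 (limma adjusted p = 0.0596) with the same sum of FPKM, where 12.1% were. The ALEXA-Seq values were 29.3, 23.9 and 28.7 in BMDM and 0.181, 5.61 and 4.98 in BSM. The gene spans 81977696 to 82035806 on chromosome 15 (mm9), and the microRNA gene Mir33 within it was listed at 0 in all 6 libraries. The listed span of Mir33 is shorter than a read of these libraries, so this 0 cannot be read as absence of the microRNA.

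Fdft1, squalene synthase, had the second highest FPKM of the members in BMDM, at 2.03, 2.52 and 2.36, against 0, 0.455 and 0.409 in BSM. The cell types did not overlap, and BSM replicate 1 was again the lowest. BMDM exceeded the mean of BSM replicates 2 and 3 by 5.34-fold. With an FPKM minimum of 1, which Fdft1 passed only through BMDM, the log2 fold change was 1.38 ± 0.24 (SE, limma adjusted p = 0.00281), and with no minimum the limma adjusted p was 0.0124. It was 0.96 with quantile normalization added (limma adjusted p = 0.00916) and 0.80 with the same sum of FPKM (limma adjusted p = 0.0537). By ALEXA-Seq, Fdft1 had 64.6, 81.4 and 80.9 in BMDM and 0.135, 18.0 and 16.7 in BSM, with a log2 fold change of 3.39 (limma adjusted p = 0.0379). Leaving out any 1 of the BMDM libraries raised that adjusted p in limma to between 0.089 and 0.118, and leaving out BSM replicate 1 lowered the log2 fold change to 2.06.

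Matches of at least 95% identity to transcripts of other genes, Ctsb and Gm6781, covered 54.7% of the longest GENCODE M21 transcript of Fdft1. Ctsb, which encodes the lysosomal protease cathepsin B, lies 3270 bases from the Fdft1 span in the table (chromosome 14, 63765242 to 63796687, mm9). Its FPKM was 78.0, 87.6 and 73.3 in BMDM and 87.6, 61.5 and 54.1 in BSM. Ctsb had 87.6 FPKM in both BSM replicate 1 and BMDM replicate 2, while Fdft1 was listed at 0 in the first and at 2.52 in the second. Sqle was also at 0 in BSM replicate 1, as were 7.42% of the 6364 genes tested. How the authors' counting divided such reads was not tested.

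Sqle, squalene epoxidase, was higher in BMDM, but its levels in BSM depended on the table. Its FPKM was 2.92, 1.19 and 1.16 in BMDM and 0, 0.0271 and 0.0696 in BSM. BMDM replicate 1 stood apart from the other two, and the cell types did not overlap. The log2 fold change with an FPKM minimum of 1, again passed only through BMDM, was 1.36 ± 0.28 (SE, limma adjusted p = 0.0059), and with no minimum the limma adjusted p was 0.0266. It remained called with quantile normalization added (1.02, limma adjusted p = 0.0347) and with the same sum of FPKM (0.98, limma adjusted p = 0.028). By ALEXA-Seq, however, the BSM libraries had 6.06, 7.68 and 8.62, against 30.4, 11.8 and 15.1 in BMDM. The means then differed 2.56-fold, and the log2 fold change of 1.15 was not called (95% interval 0.03 to 2.27, limma adjusted p = 0.128, genes with a value of at least 1). An ALEXA-Seq value per unit of FPKM was 283 and 124 for Sqle in BSM replicates 2 and 3, against medians over genes of 13.5 and 13.6 in those libraries. In BMDM it was 10.4, 9.92 and 12.95. Sqle lies on chromosome 15 at 59146667 to 59162747 (mm9) and had no near-identical copy among the GENCODE M21 transcripts.

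Idi1, isopentenyl diphosphate isomerase, differed between the tables by more. It had 0.0203, 0 and 0.035 FPKM in BMDM and 0, 0.0321 and 0.0104 FPKM in BSM, at or near 0 throughout. With no FPKM minimum its log2 fold change was 0.01 (95% interval -0.04 to 0.05, limma adjusted p = 0.834). The ALEXA-Seq values were 46.6, 34.1 and 42.0 in BMDM and 0, 6.86 and 5.67 in BSM, with no overlap. Every BMDM library stood above every BSM library for 51.5% of the entries tested on that table. There the log2 fold change was 3.47 ± 0.84 (SE, limma adjusted p = 0.0141), and it was 3.38 (limma adjusted p = 0.051) without BMDM replicate 1 and 3.45 (limma adjusted p = 0.0534) without BMDM replicate 3. Matches to 3 other genes covered 33.3% of the longest Idi1 transcript. The paralog Idi2 was at most 0.0443 FPKM and 1.06 by ALEXA-Seq in any library. Which of the tables gives the better estimate for Idi1 (chromosome 13, 8885214 to 8891614, mm9) was not tested.

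Lss, lanosterol synthase, was low in both cell types and did not separate them. Its FPKM was 0.206, 0.275 and 0.195 in BMDM and 0.0526, 0.24 and 0.145 in BSM, with overlap. The log2 fold change with no FPKM minimum was 0.10 (95% interval -0.09 to 0.28, limma adjusted p = 0.454). By ALEXA-Seq it had 4.01, 2.87 and 2.25 in BMDM and 1.21, 5.48 and 2.81 in BSM, a log2 fold change of 0.07 (95% interval -1.24 to 1.38, limma adjusted p = 0.94). The gene lies on chromosome 10 at 75994363 to 76018226 (mm9), where 4930483K19Rik overlaps it at no more than 0.0867 FPKM.

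Hmgcs1, the cytosolic HMG-CoA synthase, had no row in the Cufflinks table. The ALEXA-Seq table held 2 rows under its symbol, with values of at most 0.0659 and 0.0841. The Ensembl identifiers of both rows are not in GENCODE M21, where Hmgcs1 has another identifier, so these values cannot be read as the level of the gene.

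**Figure D3:**
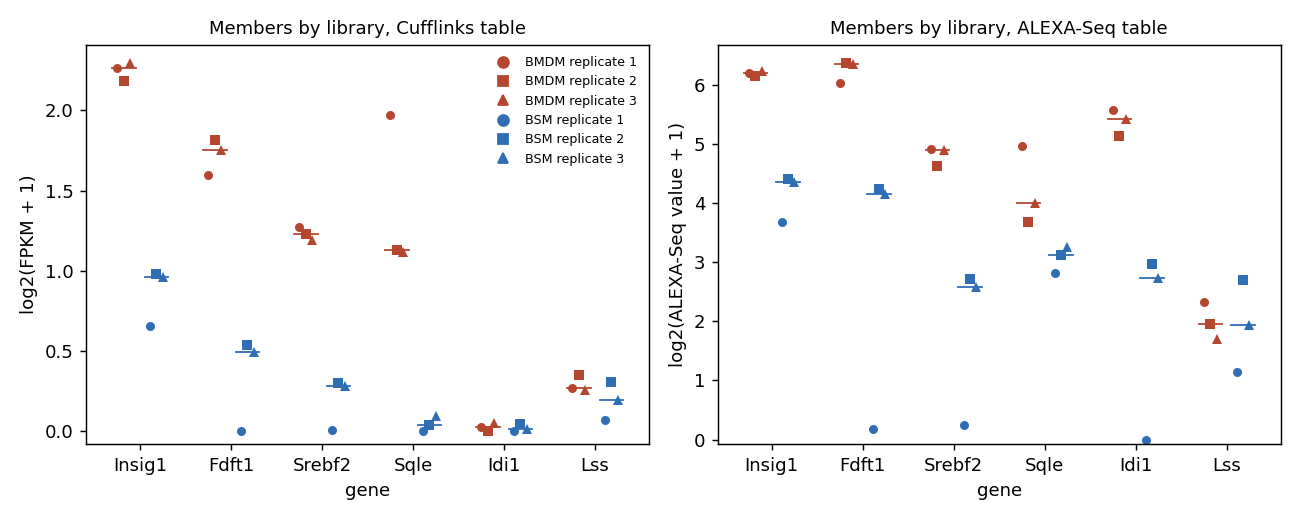
Expression of 6 members in each library, as log2(FPKM + 1) on the left and log2(ALEXA-Seq value + 1) on the right, with short lines at the median of each cell type. Insig1, Fdft1, Srebf2 and Sqle are higher in all BMDM libraries in both panels, Idi1 only in the right one, and Lss overlaps in both.

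By FPKM, which is scaled for length, the order of the medians in BMDM was Insig1, Fdft1, Srebf2, Sqle, Lss and Idi1, and only Srebf2 and Sqle overlapped as neighbours in that order. In BSM it was Insig1, Fdft1, Srebf2, Lss, Sqle and Idi1. There, Insig1 stood clear of Fdft1, and all later neighbours overlapped. With no FPKM minimum, so that no member entered through a high group, 6 of the 7 members were tested and 4 were called, all higher in BMDM. The same 4 had no overlap between the cell types, as had 30% of the genes above 0 and 49.8% of the genes that reached an FPKM of 1, with BMDM higher. The call compares with 14.9% of the 21167 genes tested, and the medians of the log2 fold changes were 1.20 over the members and 0.03 over all genes. Many of those genes are near 0. At an FPKM minimum of 1, which the 4 called members passed, 37.2% of 9637 genes were called higher in BMDM. The median over all genes was 0.58 there. These counts rest on unscaled values. With the same sum of FPKM, 1 member, Sqle, was called at an FPKM minimum of 1, and at a minimum of 3 none was with the same sum or quantile normalization (limma, also 0 at an unadjusted p under 0.05). By ALEXA-Seq at a value of at least 1, 4 of the members (Insig1, Fdft1, Idi1 and Srebf2) were called higher in BMDM, against 17.6% of 16326 genes. Leaving out any 1 BMDM library raised the limma adjusted p of Fdft1, Idi1 and Srebf2 there to between 0.0805 and 0.188. Without BSM replicate 3 it lay between 0.052 and 0.0856 for these genes, and without BSM replicate 2 it was 0.0845 for Fdft1 and 0.0508 for Srebf2. Both tables come from the same 6 libraries.

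The genes closest to each member were sought among the 6364 tested genes, by the Euclidean distance of log2(FPKM + 1) centred on its mean over the 6 libraries. Insig1 was closest to Far1 (distance 0.0549) and Ddx46 (0.0887). Fdft1 was closest to Bzw1 (0.115) and Sephs1 (0.135), and Srebf2 to Kdm2a (0.105) and Mfap1a (0.121). Sqle, with its high BMDM replicate 1, was closest to Rab36 (0.237) and Rap1gap2 (0.282). The nearest genes of Lss were Dock10 (0.168) and Mll1 (0.173), and those of Idi1 were Zfx (0.0898) and Snapc3 (0.113). Idi1, at most 0.035 FPKM, and Lss, at most 0.275 FPKM, hardly varied on this scale. A gene with little variation therefore lies close to them whatever its function. All of these distances rest on the same 6 libraries of 2 cell types.

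The remaining enzymes of the mevalonate arm were mostly low. Of 8 listed genes, 6 had a Cufflinks row, 1, Ggps1, reached an FPKM of 3, and none was called at that minimum by limma, nor at an unadjusted p under 0.05. Ggps1, which diverts farnesyl diphosphate to geranylgeranyl diphosphate, had a log2 fold change of 0.03 (limma adjusted p = 0.924). It turned to -0.62 with an FPKM minimum of 1 and quantile normalization (limma adjusted p = 0.0582), and at the minimum of 3 it was called higher in BSM with quantile normalization or the same sum of FPKM. At that minimum, quantile normalization called 1227 and the same sum 1582 of the 6364 genes higher in BSM. Fdps, the farnesyl diphosphate synthase, did not reach an FPKM of 1 but had 17.8, 24.2 and 25.1 by ALEXA-Seq in BMDM against 0.193, 1.56 and 2.96 in BSM. Mvd, mevalonate diphosphate decarboxylase, was measured only by ALEXA-Seq, at 36.2, 29.9 and 38.9 in BMDM and 0, 6.04 and 4.42 in BSM. Both were thus without overlap between the cell types on that table. Every BMDM library stood above every BSM library for 33.2% of the entries with a value of at least 1 there.

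In the sterol arm, all 13 genes had a row, 4 reached an FPKM of 3 and 2 were called, both higher in BMDM. At that minimum, 45.3% of all 6364 genes tested were called higher in BMDM. Lbr, which carries sterol reductase activity and anchors chromatin at the nuclear envelope, had 16.4, 39.5 and 20.9 FPKM in BMDM and 2.66, 1.02 and 1.31 FPKM in BSM (log2 fold change 3.28, limma adjusted p = 0.000328). Ebp, the sterol isomerase, had 1.87, 3.70 and 2.55 FPKM in BMDM and 0.549, 1.28 and 1.14 FPKM in BSM (0.89, limma adjusted p = 0.0402). It reached an FPKM of 3 only in BMDM replicate 2. The call for Ebp was lost without BMDM replicate 2, BMDM replicate 3, BSM replicate 2 or BSM replicate 3. Upper quartile scaling also removed it. With an FPKM minimum of 1, 6 of 9 tested genes were called higher in BMDM and none higher in BSM, namely Fdft1, Sqle, Cyp51, Lbr, Ebp and Sc5d, against 37.2% of all genes tested there. Fdft1, Sqle and Sc5d passed that minimum only through BMDM. Quantile normalization at that minimum left Fdft1, Sqle and Lbr, and the same sum of FPKM left Sqle and Lbr. The median log2 fold change of the 9 genes was 0.79, against 0.58 over all 9637 genes, and 0.28 against -0.02 after quantile normalization. Dhcr7, the last reductase of the route, was not called (-0.40, limma adjusted p = 0.343) but was called higher in BSM with quantile normalization (-1.18, limma adjusted p = 0.0301) or the same sum of FPKM (-1.29, limma adjusted p = 0.0292). Of the 6364 genes in those fits, 1227 and 1582 were called higher in BSM. The steps of the pathway therefore did not all show the same difference.

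**Figure D4:**
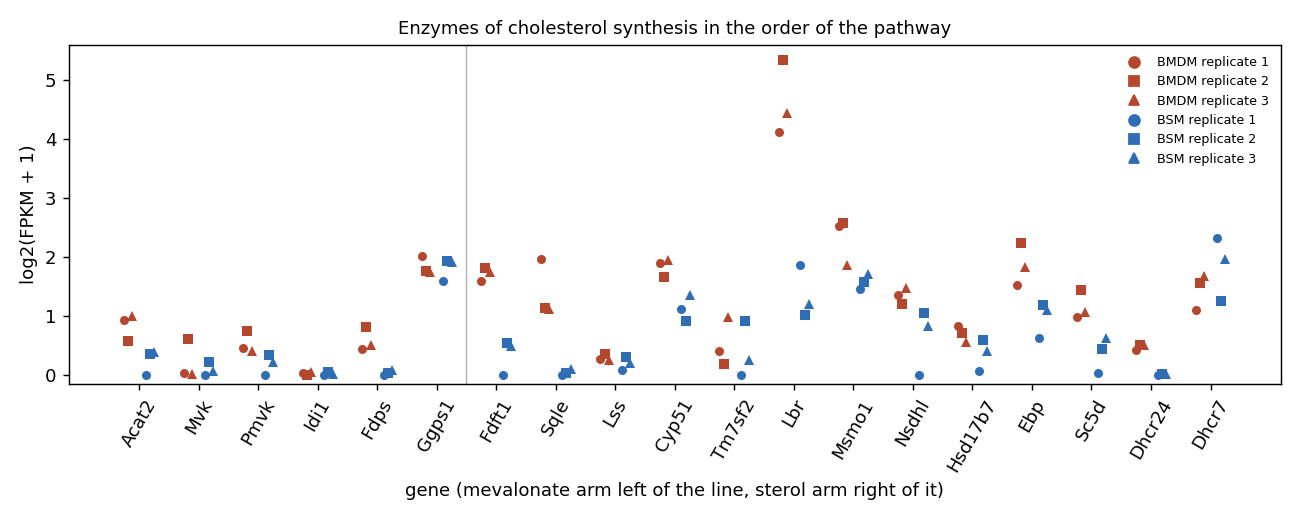
Log2(FPKM + 1) of 19 enzymes of cholesterol synthesis in each library, in the approximate order of the pathway on the x axis, without Hmgcs1 and Mvd, which had no Cufflinks row. Lbr shows the widest gap between the cell types, and Mvk, Idi1, Ggps1, Lss, Tm7sf2, Hsd17b7 and Dhcr7 overlap.

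Among 9 genes of SREBP control, 5 reached an FPKM of 3 and Insig1 was the only one called, against 54.5% of all genes tested there. Scap, the escort of SREBP, had 2.49, 5.80 and 2.65 FPKM in BMDM and 1.52, 4.52 and 2.21 FPKM in BSM (log2 fold change 0.32, limma adjusted p = 0.509). Srebf1, which encodes the fatty acid branch of the factors, had 0.386, 1.19 and 0.441 FPKM in BMDM and 0.00355, 0.304 and 0.181 FPKM in BSM. It did not overlap but was not called with an FPKM minimum of 1 (0.50, limma adjusted p = 0.142), a minimum at which every BMDM library exceeded every BSM library for 49.8% of genes. The proteases Mbtps1 and Mbtps2 that cleave SREBP, and the ubiquitin ligases Rnf139 and March6, were not called in either direction at that minimum. With the same sum of FPKM added, however, Rnf139 (-1.61, limma adjusted p = 0.0406), March6 (-0.94, limma adjusted p = 0.0427) and Insig2 (-1.11, limma adjusted p = 0.0261) were called higher in BSM and no gene of the list higher in BMDM. Of all 9637 genes in that fit, 1977 were called higher in BSM and 1166 higher in BMDM. March6 was called higher in BMDM without BSM replicate 1 (0.50, limma adjusted p = 0.0312). The median over the list was 0.43 with an FPKM minimum of 1 and -0.11 with quantile normalization added.

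Of 7 genes of sterol uptake and transport, 5 reached an FPKM of 3 and 4 were called, 3 higher in BMDM and 1 higher in BSM. Soat1, which esterifies cholesterol for storage, was higher in BMDM (log2 fold change 1.88, limma adjusted p = 0.00131), and so was Npc2, the soluble lysosomal carrier (1.51, limma adjusted p = 0.0097). Npc2 was not called with an FPKM minimum of 1 and quantile normalization (0.75, limma adjusted p = 0.128). Scarb1, a receptor for high-density lipoprotein, was the third, with 5.12, 7.19 and 4.83 FPKM in BMDM and 1.57, 1.41 and 1.32 FPKM in BSM (1.45, limma adjusted p = 0.0019). Npc1, the membrane partner of Npc2, was higher in BSM, with 30.3, 27.3 and 21.7 FPKM against 10.8, 17.1 and 12.9 FPKM in BMDM (-0.92, limma adjusted p = 0.0182). In that direction, 9.22% of the 6364 genes were called, and 45.3% were called higher in BMDM. The call for Npc1 was lost without BMDM replicate 1, BMDM replicate 3 or BSM replicate 2 (limma adjusted p between 0.0558 and 0.0669).

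In fatty acid synthesis, a branch partly under SREBP1, 6 of 11 genes reached an FPKM of 3 and 3 were called. Acly, ATP citrate lyase, which supplies acetyl-CoA to both branches, had 26.4, 46.8 and 29.6 FPKM in BMDM and 7.67, 7.74 and 5.87 FPKM in BSM (log2 fold change 2.09, limma adjusted p = 0.000674). Elovl5, a fatty acid elongase, was also higher in BMDM (1.296, limma adjusted p = 0.00529), but not with an FPKM minimum of 1 and quantile normalization (0.57, limma adjusted p = 0.132). Fads1, the delta-5 desaturase, was higher in BSM, at 3.57, 4.85 and 4.34 FPKM against 0.402, 0.237 and 0.442 FPKM (-1.95, limma adjusted p = 0.000607). Over the 5 lists, 10 of the 21 genes tested at an FPKM of 3 were called, against 54.5% of all genes, so at this minimum the lists did not stand out from the genes tested.

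**Figure D5:**
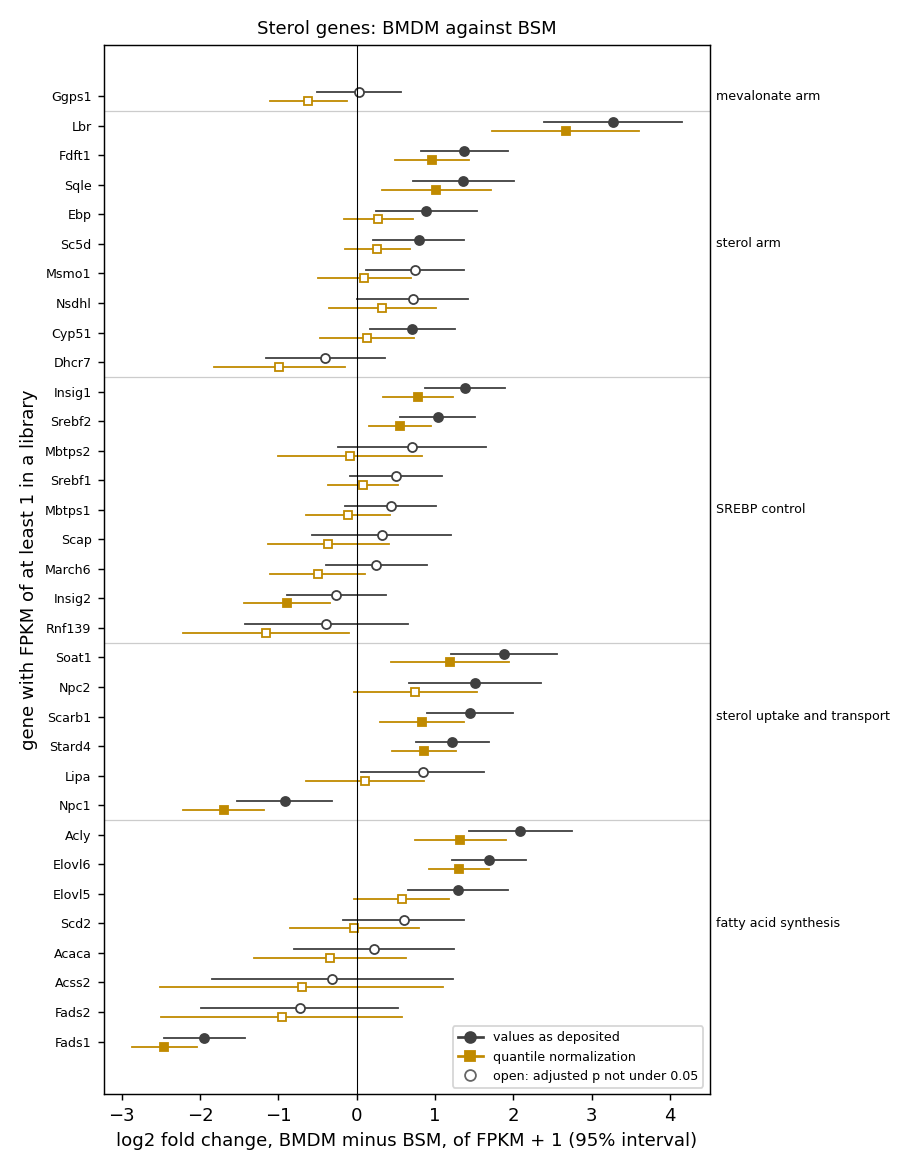
Log2 fold changes with 95% intervals of the 33 listed genes that passed the FPKM minimum of 1, for values as deposited (circles) and after quantile normalization (squares), with filled symbols for an adjusted p under 0.05. Insig1, Srebf2, Fdft1, Sqle, Lbr, Scarb1, Soat1, Stard4, Acly and Elovl6 are filled and positive under both, while Npc1 and Fads1 are filled and negative under both.

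Markers of other cells moved with the cell types and were read beside these results. Microglia markers (8 genes) summed to between 774 and 862 FPKM in BSM and between 17.6 and 19.7 in BMDM, and monocyte markers (6 genes) to between 535 and 594 FPKM in BMDM and at most 1.58 in BSM. Cell cycle genes (6 genes) summed to between 256 and 333 FPKM in BMDM and at most 1.49 FPKM in BSM. Granulocyte markers summed to between 48.8 and 346 FPKM in BMDM and at most 0.0714 FPKM in BSM, with 6 of 8 at 0 in all BSM libraries, and erythroid markers to between 6.81 and 38.8 FPKM in BMDM. The highest granulocyte and erythroid sums were both in BMDM replicate 2, which also had the highest Lbr and Acly. That library had the highest summed FPKM of all libraries as well. Of the members by FPKM, Fdft1 and Lss were highest there among the BMDM libraries. Insig1 and Idi1 were lowest there, and Sqle and Srebf2 lay in between. Lymphocyte markers reached 8.70 FPKM in BMDM and 0.0793 FPKM in BSM, endothelial markers 3.87 and 2.92 FPKM, and border macrophage markers 2.58 and 4.14 FPKM. Among the brain's sterol-producing cells, oligodendrocyte markers (8 genes) summed to at most 2.13 FPKM in BSM, with Cldn11 and Ugt8a at 0, and to between 7.06 and 12.8 FPKM in BMDM, mostly Mbp. Astrocyte markers (7 genes) summed to between 5.32 and 9.54 FPKM in BSM, nearly all Slc1a3, with Gfap at 0. Neuron markers summed to at most 0.249 FPKM in any library. The part of cell division and of other marrow cells in the differences of the sterol genes was not tested.

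BSM replicate 1 stood apart. Of the 6364 genes tested, 7.42% were listed at 0 there, against between 0.801% and 1.81% in the other libraries, and so were 14 of the 46 listed sterol and fatty acid genes with a row. Sqle and Fdft1 were among them. The study's RNA quality assessment also gave the RNA of this library by far the lowest integrity and concentration of the 6, and its part in these zeros was not tested. Without it the log2 fold change of Insig1 was 1.27 (limma adjusted p = 0.00141), and with an FPKM minimum of 1 Fdft1, Sqle and Srebf2 remained called.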

How the data were processed

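RNA-Seq was analysed in 3 BMDM and 3 BSM libraries, grouped by their labels. The authors aligned the reads and used Cufflinks to deposit gene expression as FPKM, and the submitters' processing notes name CASAVA 1.7.0, Bowtie 0.12.7, TopHat 1.3.1, Cufflinks 1.0.3 and mm9. The deposited ALEXA-Seq table holds a normalized expression signal per gene on a linear scale whose unit is not given in the sources used here. Neither table holds read counts, so the number of reads behind a gene's value is unknown, although the study lists similar totals of mapped reads for all libraries. Starts count from 0 in the file and are printed from 1. Read so, the spans of 7538 of 17762 genes equal their GENCODE M21 spans, and 265 do otherwise.

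FPKM of genes with at least 3 in a library (the study's minimum) were compared with limma 3.58.1 in R 4.3.3 (mean-variance trend) on log2(FPKM + 1), without further scaling, and Benjamini-Hochberg adjusted p-values under 0.05 were called. This pseudocount understates changes of low genes. As many ALEXA-Seq entries, with the highest values (maximum at least 37.4), were tested on log2(value + 1). The replicates are separately sorted sets of pooled mice, and an exact permutation test of 3 against 3 libraries cannot go below 0.1.

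The members, the 5 pathway lists and the 11 marker lists (microglia, monocyte, oligodendrocyte, astrocyte, neuron, endothelial, granulocyte, erythroid, lymphocyte and border macrophage markers and cell cycle genes) were chosen with earlier results of these data known. Some genes of these lists are not reported here and were left out of their counts. Named besides the members were Srebf1, Scap and Insig2, up to 3 called genes per list and direction with the largest change, and the 2 genes nearest to each member. Fdps, Mvd, Ggps1 and Dhcr7, other genes of the lists, and Ctsb, Idi2 and Mir33 were named after their values were seen. Alternatives were upper quartile, quantile and equal-sum scaling, 0.1 as pseudocount, 1 or no FPKM minimum, no trend, library quality weights, a replicate block and leaving out each library. The FPKM minimum of 1 combined with a scaling, a block or a library left out was added after the data were seen, as was an ALEXA-Seq minimum of 1 so combined. Near-identical copies were matches by blastn 2.17.0 of at least 100 bases and 95% identity among GENCODE M21 transcripts. Promoter windows were those of RefSeq. Tables and plots used Python 3.11.15 with pandas 2.3.3 and matplotlib 3.10.9.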

Additional observations from a re-analysis of the deposited data

How the results depend on the processing

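The number of members called by FPKM, 1 with a minimum of 3, was 0 with quantile normalization or the same sum of FPKM (limma, also 0 at an unadjusted p under 0.05, with Insig1 at unadjusted p of 0.0541 and 0.0554). It was 4 with an FPKM minimum of 1 or none, and 4 with a minimum of 1 joined to upper quartile scaling, quantile normalization or the replicate block, but 1 with a minimum of 1 joined to the same sum, and 3 on the ALEXA-Seq values. Leaving out each library gave 1 at a minimum of 3 and 4 at a minimum of 1. The lower minimum tests more members by construction. The number of members called by ALEXA-Seq, 3, was 1 with a pseudocount of 0.1, between 1 and 3 without each library, and between 1 and 4 without each library at a value of at least 1. Lss by ALEXA-Seq changed sign but was not called, at -0.53 with quantile normalization, -0.10 without BMDM replicate 1 and -0.32 without BSM replicate 1, all at a value of at least 1. Of the list counts, the mevalonate arm went from 0 (limma, also 0 at an unadjusted p under 0.05) to 1 without a minimum, with quantile normalization, with the same sum and with a minimum of 1 and the same sum, and to 2 by ALEXA-Seq, and was 0 without each library. The sterol arm went from 2 to 6 at a minimum of 1, 4 without one and 1 with upper quartile scaling, with quantile normalization or the same sum it was 2 with Dhcr7, higher in BSM, in place of Ebp, and it was between 1 and 2 without each library. SREBP control went from 1 to 0 with quantile normalization (limma, with 1 gene at an unadjusted p under 0.05), to 2 with a minimum of 1 or none, the same sum, quality weights, the replicate block or a minimum of 1 with upper quartile scaling, and to 3 with a minimum of 1 and quantile normalization or the same sum, where all genes called with the same sum were higher in BSM, and was between 1 and 2 without each library. Sterol uptake and transport went from 4 to 1 with the same sum, 2 with a minimum of 1 and the same sum, and was between 3 and 5 without each library. Fatty acid synthesis went from 3 to 5 without a minimum and was between 3 and 4 without each library. The number of all genes called, 3470, lay between 2431 and 4703 under the alternatives that kept every library, between 2498 and 3932 without each library, and between 2862 and 4933 without each library at a minimum of 1. Its share higher in BMDM moved with scaling, from 2883 against 587 to 1378 against 1227 with quantile normalization and 973 against 1582 with the same sum. The replicate block gave 3471 genes and 1 member. Deviations of same-numbered libraries from the mean of their cell type had correlations of -0.02, -0.01 and 0.13. With 3 libraries per cell type this cannot decide whether the numbers pair them, and the labels match the numbers by sex. The reads behind each gene are unknown, and most members lie below an FPKM of 3, where 1 library at 0 weighs heavily. The causes of these changes were not tested.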

Other observations

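Some lipid genes were high in BSM replicate 1 alone, the library in which Fdft1 and Sqle were listed at 0 by FPKM. These genes were picked after their values were seen. Fads2, the delta-6 desaturase, had 3.87 FPKM there against 0.126 and 0.0573 FPKM in BSM replicates 2 and 3, and 123 against 3.74 and 1.52 by ALEXA-Seq. Acss2, a cytosolic acetyl-CoA synthetase, had 6.54 FPKM against 0.382 and 0.0751 FPKM. Rnf139, a ligase of the sterol-sensing complex, had 36.9 FPKM against 11.02 and 11.35 FPKM. Neither Fads2, Acss2 nor Rnf139 was called between the cell types, with limma adjusted p of 0.336, 0.725 and 0.484 on unscaled values, but Rnf139 was called higher in BSM with the same sum of FPKM (-1.61, limma adjusted p = 0.0347). That fit called 1582 of 6364 genes higher in BSM.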
